A study of Rattus norvegicus with 24 samples.

Results

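The forebrain of castrated male rats was compared 16 h after a single dose of dihydrotestosterone (DHT) with the forebrain of castrated males that had received vehicle. The members are the arrays labelled forebrain whose hybridisation passed the quality control of the submitters, which are 5 of the 24 arrays of the series: DHT replicates 1, 2 and 3 and vehicle replicates 1 and 2. All animals were Sprague-Dawley males of 12 weeks. All of them, vehicle rats included, had been castrated 3 days before the injection, so every difference below is one between castrated rats with and without a replaced androgen, and no intact male was measured. DHT was given intraperitoneally at 10 mg/kg. The rest of the series holds the same comparison in prostate and skin from castrated males, and in the ovary of females that were not castrated. The labels do not say in words that each array is a separate animal, although the design text calls the arrays biological replicates, so the p-values rest on the spread between arrays, part of which may be technical. RNA was of whole forebrain as far as the labels say, with no region named.

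DHT is an androgen that binds the androgen receptor directly and is not converted to estrogen. In the brain the receptor is found in neurons of the hypothalamus, preoptic area, amygdala, hippocampus and cortex, where androgens act on reproductive behaviour, gonadotropin feedback and neuropeptide genes. The androgen receptor shares its DNA element with the receptors for glucocorticoids, mineralocorticoids and progesterone, and genes such as Fkbp5, Zbtb16, Sgk1 and Tsc22d3 can respond to several of them.

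Levels are given on a log2 scale relative to the 75th percentile of the signal on the same array, so that a level of 0 is a fairly bright probe. Between 65.3% and 87.5% of probes were well above background on the 5 arrays, with the highest share on DHT array 1. Pearson correlations over genes were 0.988 to 0.991 among the 3 DHT arrays, 0.968 to 0.982 between DHT and vehicle arrays and 0.983 between the 2 vehicle arrays. Vehicle array 3, which was left out, had 98.4% of probes above background and an interquartile range of 1.96 log2 units, against 5.01 to 6.27 on the others. The 5 arrays lay on 5 different slides that each held 1 treatment, so slide and treatment cannot be told apart. Nefl, which encodes the neurofilament light chain, had a log2 level of 3.97 ± 0.09 in DHT forebrain (SD, n = 3) and 3.21 ± 0.21 in vehicle forebrain (n = 2), and its group means lay between -5.72 and -3.42 in the other tissues. Gad1, the GABA-synthesising enzyme, had 0.84 ± 0.13 in DHT forebrain and -0.15 ± 0.42 in vehicle forebrain, and -7.46 to -3.80 in the other tissues. Both defining genes followed the forebrain label.

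Promoter sequences are shown for 3 genes that stand for the main patterns below: Myh4, a fast skeletal muscle myosin whose difference had the smallest unadjusted p of all genes with a symbol, Slc5a7, the choline transporter of cholinergic neurons, and Fkbp5, a receptor co-chaperone whose difference in forebrain lay below that in prostate and skin. They are RefSeq sequences of GRCr8, from 250 bases before to 50 bases after the start of the gene, at chr10:52421898-52422197 (plus strand) for Myh4, chr9:7953460-7953759 (minus strand) for Slc5a7 and chr20:6543506-6543805 (minus strand) for Fkbp5. Capitals mark AGAACA, one arm of the element shared by the androgen and glucocorticoid receptors, CANNTG, the E-box read by myogenic and other helix-loop-helix factors, and TATAAA, each searched on both strands.
Myh4: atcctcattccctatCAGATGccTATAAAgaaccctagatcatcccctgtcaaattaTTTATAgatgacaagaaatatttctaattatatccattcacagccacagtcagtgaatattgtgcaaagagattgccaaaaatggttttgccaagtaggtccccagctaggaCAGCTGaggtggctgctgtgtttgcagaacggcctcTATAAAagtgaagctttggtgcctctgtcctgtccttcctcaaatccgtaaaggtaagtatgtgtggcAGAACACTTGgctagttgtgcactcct
Slc5a7: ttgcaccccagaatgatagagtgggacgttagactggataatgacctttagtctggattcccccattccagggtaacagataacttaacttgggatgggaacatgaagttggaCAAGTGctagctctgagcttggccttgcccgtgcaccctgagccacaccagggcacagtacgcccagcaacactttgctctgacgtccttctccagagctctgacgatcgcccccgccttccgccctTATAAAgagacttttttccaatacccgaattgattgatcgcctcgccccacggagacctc
Fkbp5: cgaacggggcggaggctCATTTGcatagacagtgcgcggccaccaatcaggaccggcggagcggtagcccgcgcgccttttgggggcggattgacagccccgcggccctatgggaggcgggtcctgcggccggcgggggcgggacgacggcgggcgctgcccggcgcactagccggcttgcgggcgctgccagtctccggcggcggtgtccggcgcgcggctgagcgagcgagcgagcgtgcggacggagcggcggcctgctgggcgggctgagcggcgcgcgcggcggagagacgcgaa
The Myh4 window held AGAACA once, 24 bases past the start and overlapping an E-box, and it also held 3 matches of CANNTG and 3 of TATAAA. The Slc5a7 window held 1 match of CANNTG and 1 of TATAAA, and the Fkbp5 window 1 match of CANNTG. Of 33469 rat promoters of this length, 20.7% held AGAACA, 72.1% CANNTG and 14.2% TATAAA. The full androgen response element, with both arms, was in none of the 3 windows and in 5 of all promoters (0.0149%). A match in a window is a description of its letters.

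No gene passed the threshold of an adjusted p of 0.05 in either direction among 28083 genes tested with limma (0% higher and 0% lower), and the lowest adjusted p was 0.0721. At an unadjusted p under 0.05, 3660 genes (13.0%) lay higher and 4056 (14.4%) lower with DHT, and 1561 (5.56%) and 1854 (6.60%) had an adjusted p under 0.10. In 6611 genes (23.5%) every DHT array lay above both vehicle arrays, and in 6681 (23.8%) every DHT array lay below both. The log2 difference, DHT minus vehicle, was above 0 for 13591 genes (48.4%), with a median of -0.02. The large differences were mostly downward: 393 genes (1.40%) had a log2 difference of 1 or more and 962 (3.43%) one of -1 or less. The count of passed genes depended on the fit. It was 33 (3 higher, 0.0107%, and 30 lower, 0.107%) when all tissues shared the estimate of spread, 759 with another background correction, 1597 when only probes above background on all arrays were tested, and 3318 with an intensity trend in the variance prior, and it was 0 with quantile normalization, no filter on dim probes, array weights or vehicle array 3 added.

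**Figure D1:**
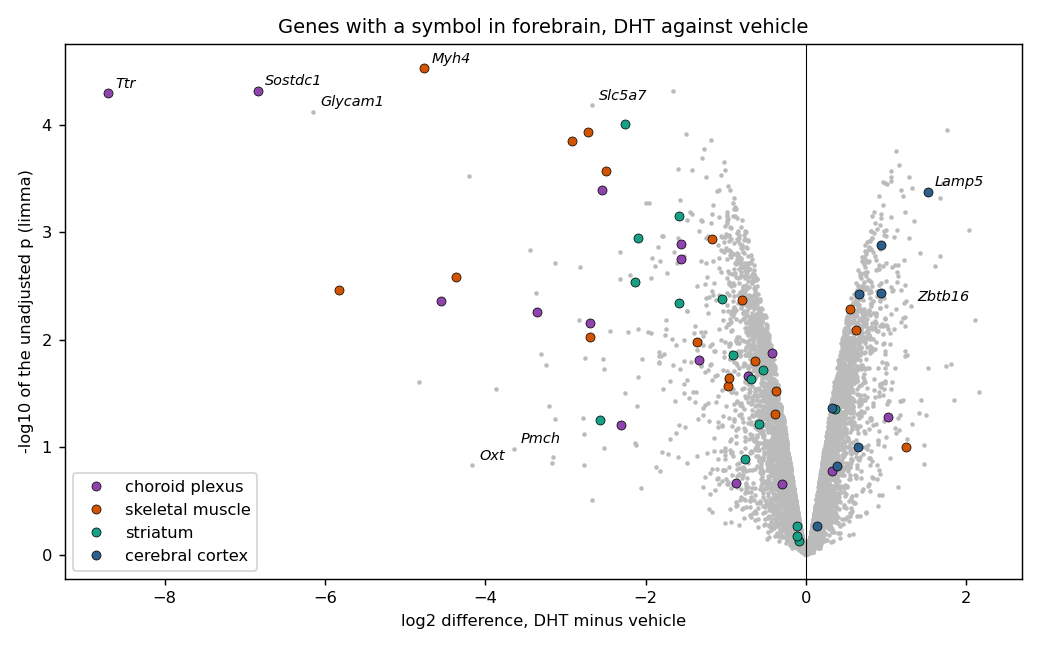
Unadjusted p from limma (vertical axis, -log10) against the log2 difference, DHT minus vehicle (horizontal axis), for each gene with a symbol. Coloured points are members of 4 marker lists, with choroid plexus and skeletal muscle genes, Ttr, Sostdc1 and Myh4 among them, at the far left, and the cortical gene Lamp5 at the right. None of the points passed an adjusted p of 0.05.

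Among genes with a symbol, the lowest differences belonged to Ttr and Sostdc1, genes of the choroid plexus, the epithelium in the ventricles that makes cerebrospinal fluid. Ttr, which encodes transthyretin, the thyroid hormone carrier secreted by that epithelium, had log2 levels of -2.18, -2.56 and -3.20 on the DHT arrays, against 4.89 and 7.23 on the vehicle arrays. The groups were far apart, the 2 vehicle arrays also differed from each other by more than 2 log2 units, and the vehicle array left out had 0.42. The log2 difference was -8.71 ± 0.73 (SE, limma, adjusted p = 0.0721). Sostdc1, an inhibitor of BMP and Wnt signalling, had -3.74, -4.11 and -4.41 on DHT arrays and 1.82 and 3.68 on vehicle arrays, a difference of -6.84 ± 0.57 (adjusted p = 0.0721). Its 2 groups did not overlap either. In the fit over all tissues Sostdc1 passed, with a difference of -6.78 and an adjusted p of 1.48e-04, and so did the water channel Aqp1 (-2.55, adjusted p = 0.00229), the chloride channel protein Clic6 (-4.56, adjusted p = 0.0204) and the folate receptor Folr1 (-3.35, adjusted p = 0.0359). Clic6 was above background on 1 of 3 DHT arrays, with DHT levels of -5.45, -7.14 and -8.15, so the size of its difference is uncertain.

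Of the 30 genes on the choroid plexus list, 20 were on the array and 16 passed the filter on dim probes. None passed the test, and 14 had a difference below 0. Of the 16, 11 lay lower on every DHT array than on both vehicle arrays, as 23.8% of all genes did. The median was -1.56, beside -0.02 over all genes. The mean level of the list was -2.58, -3.09 and -3.20 on DHT arrays and -1.26 and -0.10 on vehicle arrays. The list thus lay lower on all 3 DHT arrays than on either vehicle array, and highest on vehicle array 2. Without vehicle array 2 its median was -0.94, and without vehicle array 1 it was -1.96. Folr1 had -2.97, -4.06 and -3.20 with DHT and -1.22 and 1.11 with vehicle, a difference of -3.35 ± 0.74, with no overlap. Kcnj13, a potassium channel of that epithelium, had -2.002, -2.10 and -2.23 with DHT and -0.51 and 1.68 with vehicle, a difference of -2.70 ± 0.63 that was -1.60 without vehicle array 2. Enpp2, the secreted enzyme autotaxin, had a difference of -1.56 ± 0.25. The exceptions were the carbonic anhydrase Car12 (1.02 ± 0.41) and the copper transporter Slc31a1 (0.33 ± 0.20), which were above 0. Car12 was dim, above background on 2 of 3 DHT arrays and 1 of 2 vehicle arrays. Fewer cells of a type in the dissected tissue and less RNA per cell cannot be told apart in bulk RNA.

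Ciliated ependymal cells line the same ventricles. All 5 tested genes of that list lay below 0, with a median of -1.25. Foxj1, the transcription factor of motile cilia, had log2 levels of 0.95, 0.75 and 0.60 on DHT arrays, against 2.34 and 3.10 on vehicle arrays. The groups did not overlap, and the difference was -1.95 ± 0.26 (adjusted p = 0.0721). Dnali1, an axonemal dynein light chain gene outside the list, lay lower too (-1.49 ± 0.15), as did Tekt1, a tektin of the ciliary axoneme (-1.25 ± 0.26). In the fit over all tissues, 26 other genes or probes passed downward beside the 4 choroid plexus genes, among them Krt18, an epithelial keratin (-3.49), Itgb6, an epithelial integrin (-3.10), Bglap, which encodes osteocalcin (-4.24), Glycam1, a mucin-like secreted protein (-6.24), and Mdk, the growth factor midkine (-1.83). Krt18 had -1.18, -1.64 and -1.23 on DHT arrays and 1.14 and 3.06 on vehicle arrays, highest on vehicle array 2 as for Ttr. The 3 genes that passed upward had no symbol.

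**Figure D2:**
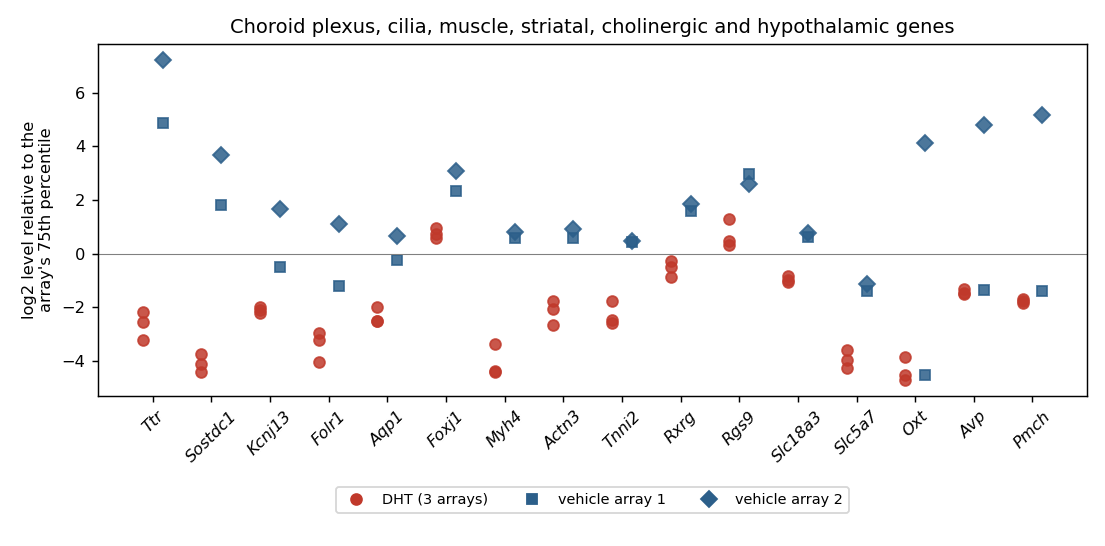
Log2 level relative to the 75th percentile of each array (vertical axis) for 16 genes, with the 3 DHT arrays as circles to the left and vehicle arrays 1 (square) and 2 (diamond) to the right. Choroid plexus and muscle genes are lower on all DHT arrays than on both vehicle arrays, while Oxt, Avp and Pmch are high on vehicle array 2 alone.

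Skeletal muscle genes formed another group of large differences, and muscle is no part of forebrain. Myh4 had log2 levels of -3.37, -4.38 and -4.42 on DHT arrays, against 0.58 and 0.82 on vehicle arrays. The groups did not overlap, the 2 vehicle arrays were close to each other, and the difference was -4.76 ± 0.36 (unadjusted p = 2.96e-05, adjusted p = 0.0721). The fast troponin Tnni2 had -1.78, -2.57 and -2.48 with DHT and 0.42 and 0.47 with vehicle, a difference of -2.73 ± 0.27. Actn3, the alpha-actinin of fast fibres, lay -2.92 ± 0.30 lower. Ckm, the muscle creatine kinase, was above background on 1 of 3 DHT arrays, with a level of -3.63 on DHT array 1, and had 0.10 and -0.36 on the vehicle arrays.

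Of 27 muscle genes listed, 20 were on the array and 18 were tested. None passed, and 15 lay below 0, with a median of -1.08. The same number had groups apart in that direction, as 23.8% of all genes did. The mean level of the list was -1.31, -2.12 and -2.10 on DHT arrays and -0.18 and -0.17 on vehicle arrays, and the vehicle array left out had -0.03. Without vehicle array 1 the median was -0.69. The members that lay higher with DHT were Myl3 (1.24 ± 0.62), Pvalb (0.63 ± 0.15) and Cox6a2 (0.55 ± 0.12). Pvalb encodes parvalbumin, which is also made by fast-spiking cortical interneurons, and it had 4.12, 3.84 and 4.06 on DHT arrays and 3.28 and 3.48 on vehicle arrays.

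The cholinergic transporter genes Slc18a3 and Slc5a7 and most striatal genes tested were lower on all DHT arrays as well. Slc18a3, the vesicular acetylcholine transporter, had -0.85, -1.06 and -0.99 with DHT and 0.61 and 0.78 with vehicle, a difference of -1.66 ± 0.14 (adjusted p = 0.0721). Slc5a7, whose promoter is printed above, had -3.58, -4.26 and -3.96 with DHT and -1.39 and -1.13 with vehicle, a difference of -2.67 ± 0.24 (adjusted p = 0.0721). In both genes the arrays of a group lay close together and the groups did not overlap. The wider list of monoamine and acetylcholine signalling, which holds Slc5a7, did not share this direction. Of its 27 genes tested, 15 lay above 0, with a median of 0.21, and none passed. In 8 of them the groups were apart upward and in 5 downward, beside 23.5% and 23.8% of all genes. Rxrg, a retinoid X receptor of striatal neurons, had -0.27, -0.52 and -0.86 with DHT and 1.58 and 1.84 with vehicle, a difference of -2.26 ± 0.21, and its second probe gave -2.16. Of 16 striatal genes tested, none passed and 15 lay below 0, with a median of -0.84. Groups were apart in that direction for 10 of them, beside 23.8% of all genes. Rgs9, a striatal regulator of G protein signalling, lay at -2.09 ± 0.33, the adenosine receptor Adora2a at -2.13 ± 0.41, the dopamine receptor Drd2 at -1.58 ± 0.33, and the peptide precursors Tac1 and Penk at -1.59 ± 0.23 and -1.04 ± 0.22. A dimmer Penk probe, above background on 3 of the 5 arrays, gave 0.43. Pdyn, the dynorphin precursor, was the member above 0 (0.36, groups apart upward). Without vehicle array 1 the striatal median was -0.47.

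The values of several hypothalamic peptide genes, Oxt, Avp and Pmch among them, turned on 1 array. Oxt, the oxytocin precursor, had log2 levels of -3.86, -4.51 and -4.71 on DHT arrays, against -4.52 on vehicle array 1 and 4.13 on vehicle array 2. Vehicle array 1 lay within the DHT range, and the difference of -4.16 had a standard error of 2.45. Avp, the vasopressin precursor and an androgen-sensitive gene in parts of the rodent brain, had -1.46, -1.33 and -1.52 with DHT and -1.35 and 4.78 with vehicle. Pmch, the melanin-concentrating hormone precursor, had -1.68, -1.83 and -1.76 with DHT and -1.40 and 5.19 with vehicle. The hypothalamic list of 14 tested genes had a median of -1.28 with all 5 arrays and -0.09 without vehicle array 2. Gal and Gnrh1, which encode galanin and gonadotropin-releasing hormone, lay lower on the DHT arrays than on both vehicle arrays, at -1.88 ± 0.33 and -1.93 ± 0.33. Both were also higher on vehicle array 2 than on vehicle array 1, with 3.08 against 2.04 for Gal. With the choroid plexus level of each array in the model the differences were -0.36 and -0.215, and with the muscle level -2.04 and -1.61. Gnrh1 had -2.92, -2.89 and -3.25 on DHT arrays and -1.61 and -0.58 on vehicle arrays. Crh, the corticotropin-releasing hormone gene, lay higher, with -0.82, -0.76 and -0.84 on DHT arrays and -2.47 and -1.37 on vehicle arrays.

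Most marker genes of glia and vessels lay lower with DHT, by less than those of choroid plexus and muscle. All 11 astrocyte, all 14 oligodendrocyte and all 12 microglia genes tested were below 0, with medians of -0.45, -0.63 and -0.56, and none passed. The astrocyte median was -0.70 without vehicle array 2. The oligodendrocyte factor Sox10 had -0.89 ± 0.16, the glial glutamate transporter Slc1a3 -0.65 ± 0.14 and the complement gene C1qb -0.84 ± 0.15. Of 11 endothelial and mural genes 10 were below 0, with a median of -0.69, among them the VEGF receptor Kdr (-0.85 ± 0.13) and the pericyte gene Rgs5 (-0.80 ± 0.16). Sparc, a matrix protein of glia and vessels, had 4.08, 4.11 and 4.08 on DHT arrays and 5.34 and 5.20 on vehicle arrays, a difference of -1.18 ± 0.12 (adjusted p = 0.0721). Of 22 interferon and inflammation genes 20 were below 0, with a median of -0.71, among them Vcam1, an adhesion molecule (-0.75 ± 0.11), and Tlr2, a receptor of innate immunity (-0.85 ± 0.14). Tlr3, a receptor for double-stranded RNA, lay at -1.28 ± 0.14.

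**Figure D3:**
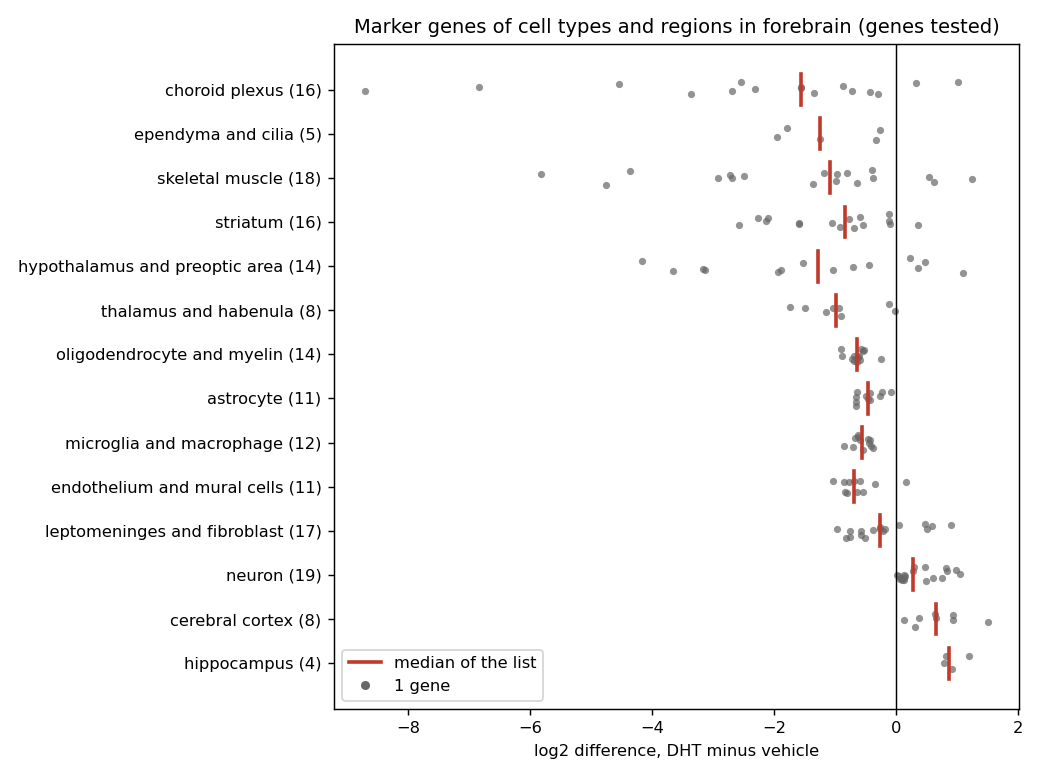
Log2 difference, DHT minus vehicle (horizontal axis), of each tested marker gene (grey points) for 14 cell types and regions, with the median of each list as a red bar and the number of genes tested in parentheses. The medians of the choroid plexus (-1.56) and skeletal muscle (-1.08) lists lie far below 0 with long tails, those of glia lie slightly below 0, and those of neurons, cortex and hippocampus lie above 0.

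In the other direction, neuronal genes lay higher with DHT. All 19 neuronal genes tested were above 0, with a median of 0.28, and none passed. Of these, 8 had groups apart upward, as 23.5% of all genes did. Nefl had log2 levels of 3.86, 4.03 and 4.03 on DHT arrays, against 3.36 and 3.07 on vehicle arrays, a difference of 0.76 ± 0.15 (adjusted p = 0.0762). Gad1 had 0.83, 0.72 and 0.98 with DHT and -0.45 and 0.15 with vehicle, a difference of 0.995 ± 0.21 (adjusted p = 0.0809), and its 2 other probes gave 1.07 and 0.997. In both genes the DHT arrays lay above both vehicle arrays. Of 49 genes of GABA, glutamate and the synapse 39 were above 0 with a median of 0.26, and of 37 potassium channel genes 31 with a median of 0.33. Examples are the glutamate receptor subunit Gria2 (0.67 ± 0.14, with 0.27 on its other probe) and the inward rectifier Kcnj3 (1.25 ± 0.26, with 1.31 on its other probe).

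Of 17 cortical genes listed, 8 were on the array. All 8 were tested and were above 0, with a median of 0.66, and 6 had groups apart upward, beside 23.5% of all genes. Lamp5, a gene of cortical neurons, had 3.29, 3.16 and 3.69 on DHT arrays and 1.85 and 1.87 on vehicle arrays, a difference of 1.52 ± 0.19 (adjusted p = 0.0721). Kcnv1, a modifying potassium channel subunit of cortex, had a difference of 0.93 ± 0.15, and Slc30a3, the zinc transporter of glutamatergic vesicles, 0.94 ± 0.19. Of 12 hippocampal genes listed, only 4 were on the array. These 4 all had groups apart upward, with a median of 0.87, among them Calb1 (1.21 ± 0.28), which encodes calbindin, and Trpc6, a cation channel (0.92 ± 0.14). The DHT arrays thus held relatively more signal of the cortical, hippocampal and general neuronal genes tested. They held relatively less of most striatal, glial, vascular, ventricular and muscle genes tested, and the part of the dissection in this was not tested.

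The 12 genes with the smallest unadjusted p upward had an adjusted p of 0.0721 each. Or2v1, an odorant receptor gene, was not well above background on either vehicle array and passed the filter through its DHT arrays alone, and its fitted difference of 1.76 was -0.002 with another background correction. Syndig1, a regulator of excitatory synapse development, had 0.27, 0.26 and 0.39 on DHT arrays and -0.83 and -0.81 on vehicle arrays, a difference of 1.13 ± 0.12. Kcns3, a modifying potassium channel subunit, had 0.69, 0.58 and 0.59 with DHT and -0.54 and -0.35 with vehicle, a difference of 1.06 ± 0.13. In both genes the spread within a group was a small part of the gap between groups. Crmp1, a mediator of semaphorin signalling in neurons, lay at 1.01 ± 0.12, Mchr1, the receptor of melanin-concentrating hormone, at 0.99 ± 0.12, and the calcium pump Atp2b4 at 1.16 ± 0.13. Cyp11b2, which encodes aldosterone synthase, had -2.93, -3.16 and -3.30 on DHT arrays and -4.41 on both vehicle arrays, a difference of 1.28 ± 0.15. The others were Cd200r1, an inhibitory receptor of myeloid cells (1.71 ± 0.21), the cytokine Tnfsf15 (1.06 ± 0.13), Lurap1l (1.06 ± 0.12), G4 (0.96 ± 0.12) and Pnma1, which was above background on 1 of 2 vehicle arrays and had 1.32 here and -0.10 with the other background correction.

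**Figure D4:**
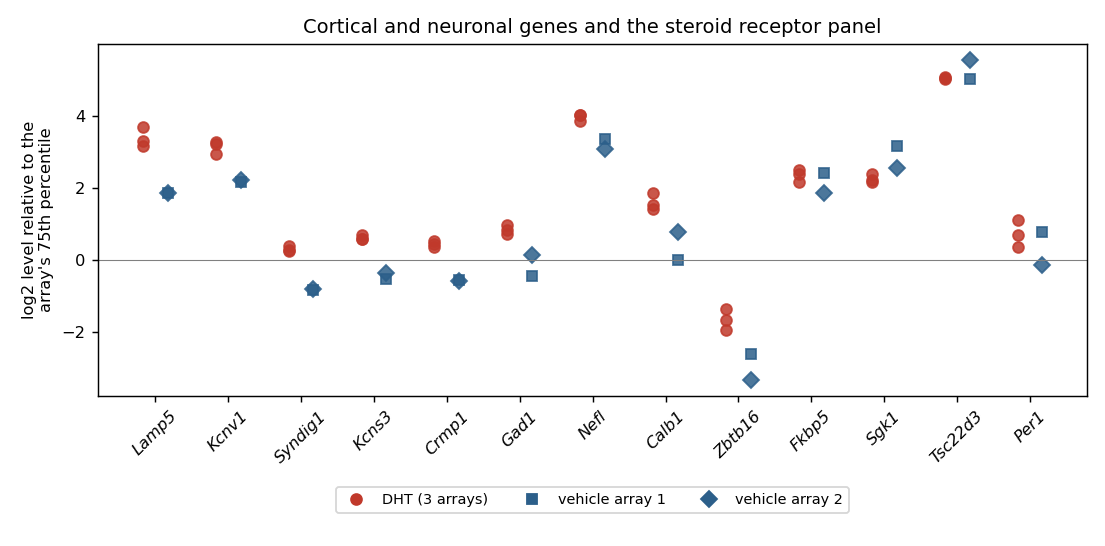
Log2 level relative to the 75th percentile of each array (vertical axis) for 13 genes, with the 3 DHT arrays as circles to the left and vehicle arrays 1 (square) and 2 (diamond) to the right. Lamp5, Kcnv1, Syndig1, Kcns3 and Crmp1 are higher on all DHT arrays, as is Zbtb16, whereas the DHT and vehicle points of Fkbp5, Tsc22d3 and Per1 overlap.

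Genes that respond to steroid receptors in many tissues were examined next. None of them passed, as none of all 28083 genes did (0%). Zbtb16, a zinc finger repressor induced by androgens and glucocorticoids, had log2 levels of -1.94, -1.67 and -1.37 on DHT arrays, against -2.61 and -3.32 on vehicle arrays. The groups did not overlap, and the difference of 1.30 ± 0.28 (unadjusted p = 0.00486, adjusted p = 0.0807) was similar on its other probe, at 1.21. Fkbp5 had 2.17, 2.38 and 2.50 on DHT arrays and 2.40 and 1.86 on vehicle arrays. These groups overlapped, with a difference of 0.22 ± 0.21 (adjusted p = 0.541) and of 0.42 and 0.47 on its 2 other probes. The difference of the main probe was -0.05 without vehicle array 2, -0.86 with the choroid plexus level in the model and -0.36 with the muscle level. Sgk1, a kinase regulated by corticosteroids, lay lower, with 2.17, 2.37 and 2.22 on DHT arrays and 3.17 and 2.56 on vehicle arrays, a difference of -0.61 ± 0.21 (adjusted p = 0.149) with no overlap.

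Tsc22d3, which encodes the glucocorticoid-induced leucine zipper, had a difference of -0.25 ± 0.18, with 0.19 on its other probe, and the clock gene Per1 one of 0.40 ± 0.35, both with overlapping groups. Of 17 tested genes shared by steroid receptors, 10 lay above and 7 below 0, with a median of 0.02 (-0.09 without vehicle array 2 and 0.19 without vehicle array 1), and none passed. Mt1, a metallothionein, lay at -0.72 ± 0.18 and Cdkn1a, a cell cycle inhibitor, at -0.96 ± 0.25. Of 22 androgen response genes known mainly from prostate, 7 lay above and 15 below 0, with a median of -0.12 (-0.04 without vehicle array 2 and -0.18 without vehicle array 1), and none passed. Clu, the chaperone clusterin, had 6.33, 6.31 and 6.14 on DHT arrays and 6.92 and 7.07 on vehicle arrays, a difference of -0.74 ± 0.14 (adjusted p = 0.0728), and the transporter Slc38a5 lay at -0.81 ± 0.22.

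Among 16 tested genes of steroid synthesis and reception, 4 lay above and 12 below 0, with a median of -0.23. Hsd11b2, which inactivates corticosteroids, had -4.05, -4.47 and -4.79 with DHT and -3.08 and -2.32 with vehicle, a difference of -1.73 ± 0.32 (adjusted p = 0.0728). The mitochondrial protein Tspo lay at -0.86 ± 0.15.

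Activity genes and clock genes were mixed. Of 33 immediate early genes 21 lay above 0, with a median of 0.20. The orphan receptor Nr4a2 had -0.26, 0.08 and 0.08 on DHT arrays and -0.72 and -1.39 on vehicle arrays (1.02 ± 0.25), and the prostaglandin synthase Ptgs2 lay at 0.99 ± 0.23. The stress factor Atf3 had -3.36, -4.14 and -3.40 with DHT and -2.02 and -1.55 with vehicle, a difference of -1.85 ± 0.30. Of 17 clock genes 12 lay above 0, among them Nr1d2 (0.75 ± 0.18) and Bhlhe40 (0.63 ± 0.13), both repressors of clock transcription, with a median of 0.22, which was -0.04 without vehicle array 2. Medians were -0.19 for 26 genes of cholesterol supply, 0.08 for 20 genes of protein folding, -0.10 for 22 genes of oxidative phosphorylation and -0.27 for 15 cell cycle genes, and none of these genes passed. Single vehicle arrays moved such small medians: without vehicle array 1 that of cholesterol supply was -0.10, and without vehicle array 2 those of protein folding and oxidative phosphorylation were 0.21 and 0.01. Hsph1, a heat shock protein of neurons and other cells, lay at 0.79 ± 0.13, and Hspb1, a small heat shock protein, at -1.25 ± 0.22.

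To separate differences that moved with the dissection from others, the mean level of the choroid plexus or the skeletal muscle list on each array was added to the model. Both covariates are themselves lower on the DHT arrays, so that with 5 arrays little of the treatment is left to estimate, and no gene passed under either (limma, 2241 higher and 1578 lower at an unadjusted p under 0.05 with choroid plexus, 1998 and 203 with muscle). With the choroid plexus level in the model the difference of Zbtb16 was -0.20, against 1.30 without it, that of Nefl 0.18 and that of Foxj1 -0.54, while that of Gad1 was 1.82, against 0.995 without it. With the muscle level it was 0.43 for Zbtb16, 0.41 for Nefl, -1.37 for Foxj1 and 0.97 for Gad1. Those of Rgs9 and Adora2a were -0.28 and -0.09 with the muscle level, but -1.78 and -2.36 with the choroid plexus level. The difference of Nr4a2 was -0.30 with the choroid plexus level and 0.29 with the muscle level. In the same order, that of Hsd11b2 was -0.02 and -0.54 and that of Hspb1 -0.18 and -0.36. Those of Ptgs2 (1.39 and 2.22) and Hsph1 (1.02 and 0.80) were not reduced. The median of the striatal list was -1.01 with the choroid plexus level and -0.10 with the muscle level, beside medians over all genes of 0.13 and 0.23. In the same order, the neuronal median was 0.07 and 0.06, below those of all genes, against 0.28 without a covariate. That of GABA, glutamate and the synapse was 0.002 and 0.04, against 0.26. The cortical median was 0.49 under each, and the hippocampal one 0.50 and 1.045. Genes that kept a difference of more than 1 log2 unit under both, without passing, included Lamp5 (1.33 and 1.26), Kcns3 (1.43 and 1.28), Syndig1 (1.09 and 1.03), Sparc (-1.41 and -1.23) and Slc18a3 (-1.25 and -1.28), with the choroid plexus value first. Genes of the choroid plexus and muscle lists themselves did so too: Ttr (-4.48 and -7.20), Sostdc1 (-3.55 and -5.73) and Myh4 (-3.42 and -2.62). A difference kept under both covariates therefore does not set a gene apart from the dissection.

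The effect of DHT in forebrain was then set against its mean effect in prostate and skin of castrated males, over 22170 genes in 1 fit. The effect differed for 125 of them, 19 higher (0.0857%) and 106 lower (0.478%) in forebrain. Fkbp5 was one of these, with an effect of 0.23 ± 0.27 in forebrain, against 2.62 ± 0.27 in prostate and 1.05 ± 0.24 in skin, a difference of -1.61 ± 0.31 (limma, adjusted p = 0.0296). That call was lost when any 1 of the 5 forebrain arrays was left out, with an adjusted p of 0.0784 to 0.197 and a difference of -1.89 to -1.32. For Zbtb16 the effects were 1.22 ± 0.59 in forebrain, 1.49 ± 0.53 in prostate and 1.48 ± 0.53 in skin, a difference of -0.27 ± 0.67 (adjusted p = 0.872). For Tsc22d3 the difference was -1.08 ± 0.33 (adjusted p = 0.120) and for Sgk1 -0.77 ± 0.40 (adjusted p = 0.344).

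The smallest adjusted p belonged to Fut4, a fucosyltransferase, with an effect of -0.91 ± 0.18 in forebrain, against 2.91 ± 0.16 in prostate and -0.41 ± 0.16 in skin, a difference of -2.16 ± 0.20 (adjusted p = 5.58e-05). The skin effect lay below 0 like that in forebrain, and the prostate effect above 0. In forebrain Fut4 had log2 levels of -1.98, -2.05 and -1.95 with DHT and -1.14 and -1.03 with vehicle, with no overlap. The next were the choroid plexus genes Aqp1 (-3.05 ± 0.36, adjusted p = 6.57e-04) and Sostdc1 (-6.33 ± 0.74, adjusted p = 0.00107), the engulfment gene Elmo3 (-1.83 ± 0.30, adjusted p = 0.0110) and the striatal gene Adora2a (-2.98 ± 0.49, adjusted p = 0.0116). Those of Fut4, Aqp1 and Sostdc1 passed without each forebrain array in turn. The calls of Elmo3 and Adora2a were lost without DHT array 3 (adjusted p = 0.0519 and 0.0515) and without vehicle array 2 (0.190 and 0.0551), and that of Adora2a also without DHT array 2 (0.0529) and vehicle array 1 (0.0912). The count of 125 was 54 or fewer without any 1 forebrain array, and 4 without vehicle array 2.

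**Figure D5:**
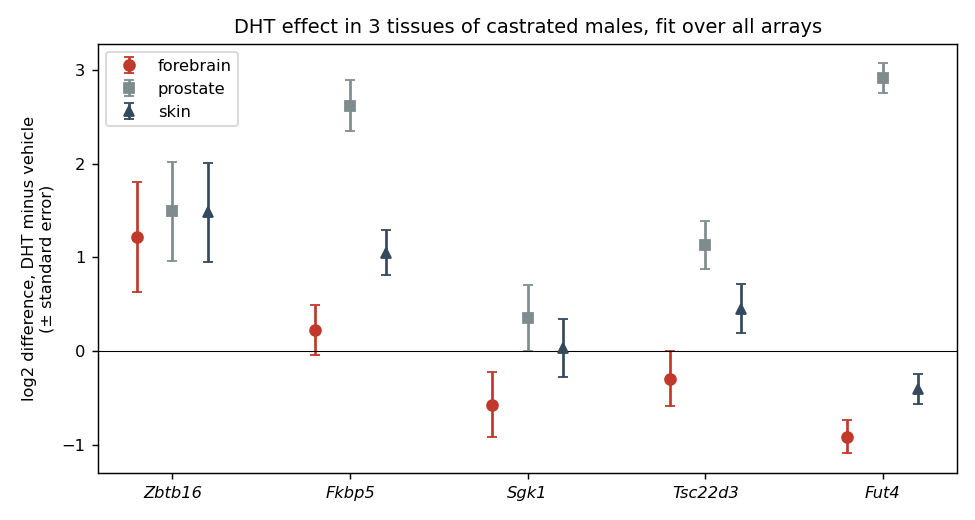
Log2 difference, DHT minus vehicle, with its standard error (vertical axis) in forebrain (circles), prostate (squares) and skin (triangles) for 5 genes, from the fit over all arrays. Zbtb16 is near 1.2 to 1.5 in each tissue, while Fkbp5 is 0.23 in forebrain, against 2.62 in prostate and 1.05 in skin.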

How the data were processed

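The deposited files held, for each array, the Cy3 intensity of every spot, as exported by the scanner software Feature Extraction (Agilent). Its version was 10.5.1.1 per the file headers and 10.1 per the submitters' processing notes, which also name limma without a version. Per the file headers, that software had subtracted background from the processed signal used here, without any scaling of arrays to each other. An array had 41012 probes beside 1417 control spots. Accessions were matched to RefSeq GRCr8 for names only: 10813 probes had a symbol (8945 symbols), and 30199 were tested unnamed.

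From the deposited intensity, the processed signal was put on a log2 scale and the 75th percentile of each array subtracted. Outlier spots were left out, probes were kept that were called well above background on 3 or more arrays, and a gene was represented by its brightest probe, which left 28083 genes (6845 with a symbol). Groups came from the labels. They were compared with limma 3.58.1 in R 4.3.3 (lmFit, eBayes, Benjamini-Hochberg, threshold 0.05). The comparison with prostate and skin used 23 arrays with slide as a random block (correlation 0.0896, from 2000 genes). Lists were described by counts and medians without a test. The code was tested on simulated data. The number of arrays limits the precision of all values.

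The members and the 33 gene lists were chosen with earlier results of these data known. Named were, among genes with a symbol and groups apart, the 12 with the smallest p in each direction (none passed), a steroid panel with Nefl and Gad1, up to 4 members of each list with the smallest p, the 5 brightest choroid plexus and muscle genes, and the 5 genes whose difference from prostate and skin had the lowest adjusted p. Other genes and the promoters shown were chosen after their values were seen. Some genes named by the rule are not reported here. Alternatives covered background correction (normexp on the median signals with an offset of 50, since the planned mean signals were not used here), quantile normalization, filters, array weights, single arrays left out or added, the replicate number as a block, and covariates.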

Additional observations from a re-analysis of the deposited data

Results flagged for a closer look

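For 8 genes among those described, the effect of DHT in forebrain differed from its mean effect in prostate and skin in the fit over all arrays (limma, 125 of 22170 genes passed). These were Sostdc1, with -6.78 in forebrain, -0.06 in prostate and -0.83 in skin (difference -6.33), Rxrg, with -2.32, 1.097 and 1.69 in the same order of tissues (difference -3.71, adjusted p = 0.0484), Aqp1 with -2.55, 0.86 and 0.15 (difference -3.05) and Adora2a with -2.11, 0.64 and 1.1 (difference -2.98). The others were Fut4 with -0.91, 2.91 and -0.41 (difference -2.16), the growth factor gene Igf2 with -0.78, 1.34 and 0.91 (difference -1.91, adjusted p = 0.0446), Elmo3 with -1.61, 0.62 and -0.19 (difference -1.83) and Fkbp5 with 0.23, 2.62 and 1.05 (difference -1.61). Adora2a and Rxrg belong to the striatal list, and Sostdc1 and Aqp1 to the choroid plexus list, both of which lay lower on all DHT forebrain arrays. Igf2 is on the list of leptomeninges and fibroblasts as well as that of growth factors. With the choroid plexus level in the forebrain model its difference was 0.105, and that of Elmo3 was -0.10. With the muscle level they were -0.31 and -1.16. Those of Fut4 were -0.73 and -0.85 in the same order.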

How the results depend on the processing

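The count of 0 genes passing in forebrain became 759 (199 higher, 560 lower) with the normexp background correction, 1597 (698 and 899) when probes had to be above background on all arrays, which tests 24562 genes, 3318 (1381 and 1937) with a trend in the variance prior, and 33 in the fit over all tissues. Leaving out 1 array gave 0 to 48 genes: 48 without vehicle array 1, 1 without DHT array 1 and 0 without the others. It was 0 with quantile normalization, no filter, vehicle array 3, array weights, each covariate and all probes tested singly. The median difference of all genes was -0.19 with normexp, -0.21 with vehicle array 3, 0.13 and 0.23 with the choroid plexus and muscle covariates, and within 0.10 of 0 in the other fits. At an unadjusted p under 0.05, normexp placed 2520 genes higher and 6694 lower, against 3660 and 4056. Of 135 named genes with such a p, 6 had the opposite sign with normexp (among them Or2v1, Pnma1, Slc6a4, Chrm2 and Kcnk3), 10 with vehicle array 3, 10 with the choroid plexus and 5 with the muscle covariate, and 0 in the other fits. The cause was not tested.

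The 125 genes that differed from prostate and skin were 96 with quantile normalization, 22 with no filter, which tests 39144 genes, 67 with no slide block, and 4 to 54 without single forebrain arrays. For Fkbp5 the adjusted p was 0.111 with no filter.

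Replicate numbers are shared between the groups, but nothing in the labels says that they pair animals, and the differences between replicates 1 and 2 of the groups correlated at -0.13 over genes. With the replicate block 0 genes passed in forebrain and 1 gene differed from prostate and skin.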

Other observations

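Other genes beyond the main groups had groups that did not overlap. The growth factor Fgf9 had log2 levels of 0.30, 0.35 and 0.44 on DHT arrays and -0.67 and -0.35 on vehicle arrays, and Gdnf, a neurotrophic factor, had 4.79, 4.94 and 4.81 with DHT and 5.69 and 5.35 with vehicle. Slc6a5, a glycine transporter of hindbrain and spinal neurons, had -3.93, -3.70 and -4.00 with DHT and -5.99 and -5.11 with vehicle. Tph2, which makes serotonin in hindbrain neurons, had -3.96, -5.21 and -5.20 with DHT and -3.05 and -3.28 with vehicle, and was above background on 2 of 3 DHT arrays. None of these genes passed the threshold (limma, adjusted p of 0.0721 for Fgf9, 0.0849 for Gdnf, 0.0721 for Slc6a5 and 0.0981 for Tph2). Haemoglobin genes did not separate the groups: Hbb-b1 had 5.89, 6.75 and 5.75 with DHT and 6.21 and 7.63 with vehicle.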
